A study of Mus musculus with 12 samples.

Results

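Gene expression was compared between the cultured mouse lines PSC4, a line of pancreatic stellate cells, and KPC4, a line of pancreatic adenocarcinoma cells. The comparison was chosen by label. It sets the 3 libraries of PSC4 kept in control supernatant against the 3 libraries of KPC4 kept in control supernatant, 6 of the 12 libraries of the series, over the 14360 gene identifiers that stand in the count tables of both lines. A further 2026 identifiers stand in the PSC4 table only and 949 in the KPC4 table only, and these are described apart. In the PSC4 control group, KPC4 donor cells received vehicle for 6 h, were washed, and then released their products into starvation medium during 14 h, after which PSC4 cells spent 24 h in that medium. In the KPC4 control group, PSC4 donor cells spent 6 h in that same kind of control medium, were washed, and conditioned fresh starvation medium during 18 h, after which KPC4 cells spent 24 h in the product. Neither control group nor its donors received gemcitabine. The other 6 libraries differ in that the first KPC4 donor cells had received 10 µM of the drug. The line, the conditioned medium, the step of the transfer and the deposited table change together between the groups, and their shares in a difference cannot be told apart. Each cell type is represented by a single line, which limits the comparison to these lines.

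Stellate cells are the vitamin A storing mesenchymal cells of the pancreas. On injury, or beside a carcinoma, they turn into matrix-producing fibroblasts, lose their lipid droplets and secrete fibrillar collagen, growth factors and cytokines. Ductal adenocarcinoma cells are epithelial: they carry simple keratins, E-cadherin junctions and the transcription factors of gut and pancreatic endoderm, and in many tumours some of them take on mesenchymal genes. The exchange of ligands between both cell types is the setting in which such supernatant transfers are carried out.

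The libraries were of like depth. The 3 PSC4 totals ranged from 30465198 to 34065826 counts and the 3 KPC4 totals from 29650888 to 34355138, with means of 32635627 ± 1911043 and 32533155 ± 2525003 (SD, n = 3 each, two-sided exact permutation test, p = 1.00, smallest possible p 0.1). Mitochondrial genes took 4.07 to 7.28% of counts in PSC4 and 2.33 to 3.90% in KPC4. PSC4 replicate 2 had the highest mitochondrial share (7.28%) and the fewest identifiers above 0 (14427). Correlations of log expression across genes were 0.963 to 0.984 within PSC4, 0.965 to 0.982 within KPC4 and 0.715 to 0.748 between the lines; genes are not independent replicates, and these values only describe the libraries.

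Levels are given as CPM, the count scaled to library size after TMM normalisation (the usual CPM unit), and differences as log2 of PSC4 over KPC4 with the standard error of the fit, so that a positive value means a higher level in PSC4. Of 13083 genes tested with edgeR's quasi-likelihood test, 6334 (48.4%) had an adjusted p under 0.05. The higher level was in PSC4 for 3098 of them (23.7% of genes tested) and in KPC4 for 3236 (24.7%). Among the genes called, 48.9% were thus higher in PSC4. The share was 49.1% with DESeq2 size factors, 52.1% with upper quartile factors and 51.1% with plain library totals. It moved with library factors taken from 24 widely expressed reference genes, where 70.3% of the calls were higher in PSC4 (4816 against 2036). The median difference then moved from 0.00 to 0.34. Those 24 genes were themselves not all equal in the main fit: 7 were called higher in KPC4 and 1 in PSC4, with a median of -0.24. Differences of at least 4-fold were called for 2112 genes (16.1%), 1079 higher in PSC4 (8.25%) and 1033 in KPC4 (7.90%). The 3 PSC4 values did not overlap the 3 KPC4 values for 7710 genes (58.9%). With 48.4% of genes called, a count within a list carries weight only where it stands well away from these shares.

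**Figure D1:**
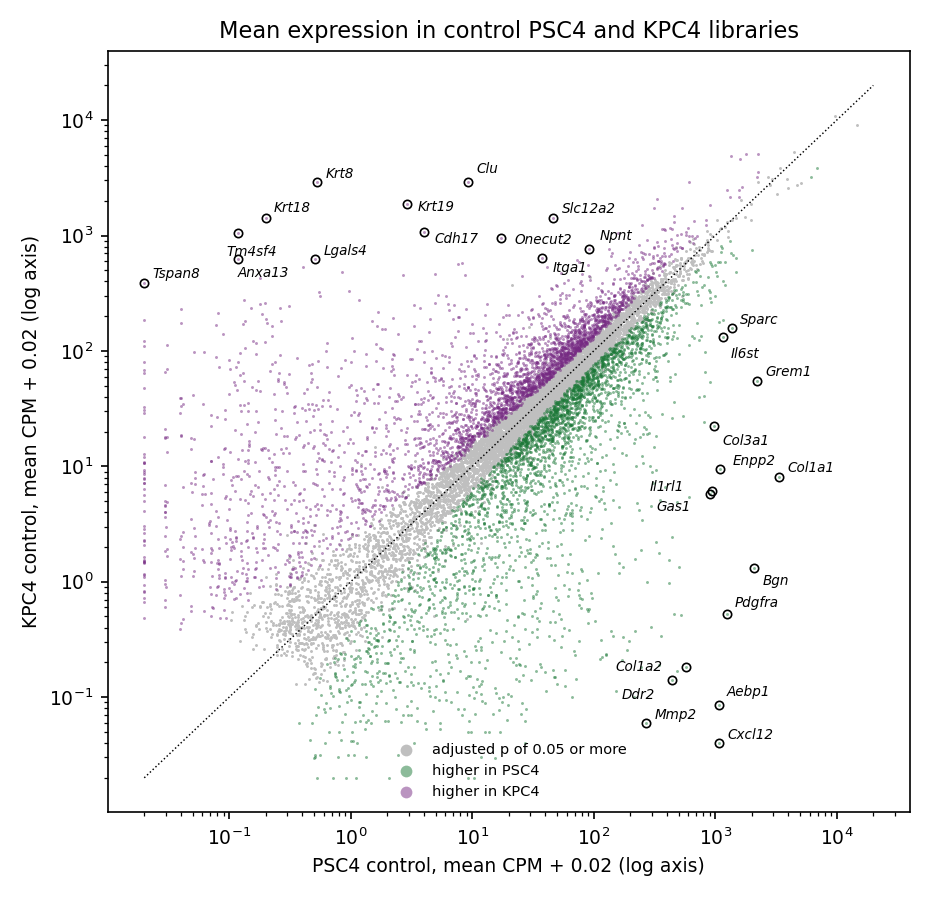
Mean CPM of each tested gene in the 3 PSC4 control libraries (x axis) and the 3 KPC4 control libraries (y axis), both log axes after adding 0.02, with genes coloured by call and the genes of highest level or largest difference ringed and named. The named collagen and stromal genes lie at the lower right and Krt8, Krt18 and Krt19 at the upper left, while Krt18 averaged 0.18 CPM in PSC4 and 1425 in KPC4.

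Promoter sequence is shown for 3 sets of genes in which most members tested differed between the lines. They were taken because each set has a textbook regulatory motif that can be looked for in the letters. The shares given cover every listed gene with a promoter, called or not. The promoters are the 250 bases before the annotated start in RefSeq (GRCm38.p6), a build other than the GRCm39 named in the submitters' processing notes, so that these coordinates do not belong to the count tables. The genes printed were chosen, after the matches were seen, among those that hold the motif, with capitals marking it on either strand. Sequences read 5′ to 3′ along the gene's strand, and both strands were searched. For interferon-stimulated genes the motif was the core of the interferon-stimulated response element, GAAA, any 2 bases and GAAA again, which STAT and IRF complexes bind. Isg15 lies on the minus strand at chr4:156200819-156201068, Ifit3 on the plus strand at chr19:34583279-34583528, and Rsad2 on the minus strand at chr12:26456453-26456702.
Isg15: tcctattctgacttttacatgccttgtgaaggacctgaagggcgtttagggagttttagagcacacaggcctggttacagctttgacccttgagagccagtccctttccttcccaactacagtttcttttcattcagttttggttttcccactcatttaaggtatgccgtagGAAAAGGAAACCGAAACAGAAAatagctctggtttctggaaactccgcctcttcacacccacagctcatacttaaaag
Ifit3: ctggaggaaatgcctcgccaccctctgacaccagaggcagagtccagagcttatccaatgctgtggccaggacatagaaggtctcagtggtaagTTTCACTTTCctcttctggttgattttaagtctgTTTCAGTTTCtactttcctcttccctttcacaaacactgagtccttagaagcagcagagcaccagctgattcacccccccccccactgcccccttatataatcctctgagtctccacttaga
Rsad2: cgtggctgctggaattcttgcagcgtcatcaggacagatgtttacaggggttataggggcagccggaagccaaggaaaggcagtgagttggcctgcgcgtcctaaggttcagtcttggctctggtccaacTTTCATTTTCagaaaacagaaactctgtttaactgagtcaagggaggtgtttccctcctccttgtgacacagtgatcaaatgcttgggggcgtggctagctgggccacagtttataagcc
In the Isg15 promoter 3 overlapping matches began 78, 72 and 66 bases before the start. The Ifit3 promoter held 2 matches and the Rsad2 promoter 1. Of the 20 genes of the interferon and MHC class I list, 15 had a promoter in the RefSeq table and 7 of these (46.7%) held the motif, against 821 of all 27025 promoters (3.04%).

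For genes of glycolysis the motif was ACGTG, the core of the hypoxia response element. Ldha lies on the plus strand at chr7:46845554-46845803 and Slc16a3 on the plus strand at chr11:120948817-120949066.
Ldha: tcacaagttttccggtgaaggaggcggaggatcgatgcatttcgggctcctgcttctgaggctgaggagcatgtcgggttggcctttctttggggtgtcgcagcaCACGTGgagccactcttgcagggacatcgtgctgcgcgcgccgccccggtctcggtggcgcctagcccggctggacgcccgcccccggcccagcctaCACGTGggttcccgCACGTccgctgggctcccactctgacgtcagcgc
Slc16a3: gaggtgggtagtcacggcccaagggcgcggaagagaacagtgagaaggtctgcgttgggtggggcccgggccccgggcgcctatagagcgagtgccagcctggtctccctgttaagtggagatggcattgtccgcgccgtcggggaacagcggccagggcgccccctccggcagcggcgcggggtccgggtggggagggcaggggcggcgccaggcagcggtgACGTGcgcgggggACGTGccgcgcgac
In Ldha the matches began 145, 144, 48, 47 and 34 bases before the start. The first pair and the second pair each overlap, because CACGTG reads as the motif on both strands. Among the 20 genes of the glycolysis and hypoxia list, 9 promoters held the motif (45%), against 16.6% of all promoters. Slc16a1 and Car9, whose levels were not called different, are among the 9.

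For epithelial genes the motif was CACCTG, an E-box that ZEB and SNAIL repressors bind. Krt8 lies on the minus strand at chr15:102004343-102004592 and Krt18 on the plus strand at chr15:102027966-102028215.
Krt8: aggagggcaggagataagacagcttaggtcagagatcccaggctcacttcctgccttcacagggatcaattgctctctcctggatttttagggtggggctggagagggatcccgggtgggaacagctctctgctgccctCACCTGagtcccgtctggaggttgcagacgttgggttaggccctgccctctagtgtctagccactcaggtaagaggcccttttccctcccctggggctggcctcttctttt
Krt18: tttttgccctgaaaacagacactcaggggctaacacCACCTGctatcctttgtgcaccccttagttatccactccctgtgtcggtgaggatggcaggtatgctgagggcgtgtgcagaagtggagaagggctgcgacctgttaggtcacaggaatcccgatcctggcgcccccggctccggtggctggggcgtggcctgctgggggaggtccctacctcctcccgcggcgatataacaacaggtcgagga
Of 46 keratin, adherens, desmosome, tight junction and polarity genes, 27 had a promoter in the table and 14 of these (51.9%) held the motif, against 17.1% of all promoters. The CArG box, the motif of serum response factor, was looked for in the same way in the contractile genes and stood in 1 of 11 promoters (9.09%, Myl9), against 1.4% of all. A match describes the letters only, and none of these shares says whether a factor was bound.

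The labels of both lines were checked against marker genes. The KPC4 table held 11 of 12 epithelial and ductal markers, and 8 of them had rows for PSC4. Their summed level was 6044 to 7514 CPM in the KPC4 libraries and 16.1 to 16.7 in the PSC4 libraries. All 8 that were tested were called higher in KPC4, each at least 4-fold. Grhl2 (log2 -2.38, adjusted p = 0.0176) lost its call without PSC4 replicate 1, PSC4 replicate 3 or KPC4 replicate 1 (adjusted p from 0.0682 to 0.0817), and 7 were then called. Of 12 fibroblast and activated stellate markers, PSC4 had rows for 11 and KPC4 for 7, with summed levels of 7723 to 8814 and 2427 to 2825 CPM. The KPC4 sum was made up mostly of vimentin (Vim), the intermediate filament of mesenchymal cells. In the main fit Vim was the only fibroblast marker called higher in KPC4.

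Krt8 and Krt18, the partner keratins of simple epithelia whose promoters are printed above, had the widest gaps of the epithelial markers. Krt8 measured 2698, 2852 and 3155 CPM in KPC4 replicates 1 to 3 and 0.373, 0.961 and 0.193 CPM in PSC4. Krt18 measured 1574, 1161 and 1539 CPM in KPC4 and 0.287, 0.124 and 0.129 in PSC4. Each KPC4 library exceeded every PSC4 library, with log2 differences of -12.46 for Krt8 (SE 0.48, adjusted p = 5.55e-08) and -12.90 for Krt18 (SE 0.34, adjusted p = 1.19e-08). The ductal keratin Krt19 followed with 2108, 1432 and 2040 CPM in KPC4 against 2.53, 3.81 and 2.38 in PSC4. Per kilobase of exon, which allows genes to be compared, Krt8 was the highest keratin in KPC4 at 1482 CPM per kb, with Krt19 at 1003 and Krt18 at 991. In the PSC4 libraries the levels of Krt8, Krt18 and Krt19 were 0.0175, 0.0126 and 0.156% of those in KPC4. Of 5 keratins tested, 4 were higher in KPC4 and 1 in PSC4 (log2 1.59), beside 24.7% and 23.7% of all genes. In a test against a 2-fold difference the count higher in PSC4 was 0. Cdh1, which encodes E-cadherin, was listed in the KPC4 table only, at 695, 454 and 604 CPM of that table's totals.

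Other epithelial markers were low even in KPC4. Epcam, an adhesion molecule of most carcinomas, stood at 15.2, 3.9 and 7.79 CPM in KPC4, with replicate 1 highest, and had no row in the PSC4 table. Ocln, the tight junction protein occludin, averaged 0.508 CPM per kb in KPC4, and Grhl2, a transcription factor that maintains epithelia, averaged 0.163, against 128 for Cdh1. Esrp1, an epithelial splicing regulator, had no row in either table. KPC4 thus had high keratin and E-cadherin levels and low levels of several other members of the epithelial list.

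Pdgfra, the platelet-derived growth factor receptor that defines fibroblasts, was high in every PSC4 library. It measured 1204, 1387 and 1136 CPM in PSC4 and 0.208, 0.906 and 0.411 in KPC4. The groups did not overlap, and the log2 difference was 11.24 (SE 0.43, adjusted p = 5.55e-08). The alpha chain of type I collagen, Col1a1, stood at 3720, 2765 and 3562 CPM in PSC4 and at 11.3, 6.67 and 6.37 in KPC4. That is a difference of 8.69 (SE 0.33, adjusted p = 4.05e-08). Col1a2, which forms the same trimer, averaged 573 ± 71.7 CPM in PSC4 and 0.164 ± 0.0547 in KPC4, so that the KPC4 level was 0.0286% of that in PSC4 for Col1a2 and 0.242% for Col1a1. Pdgfrb and Dcn were in the PSC4 table only, at means of 212 ± 18.9 and 267 ± 64.9 CPM (SD, n = 3).

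Several genes used to define activated or quiescent stellate cells were scarce in PSC4. Acta2, the smooth muscle actin of myofibroblasts, measured 17.5, 12.3 and 16.7 CPM in PSC4 and 0.0891, 0.211 and 0 in KPC4; it was higher in PSC4 in all libraries, yet per kilobase it reached 7.06 CPM against 510 for Col1a1. Fap, a protease of reactive fibroblasts, stood at 1.84, 0.465 and 0.838 CPM in PSC4. Lum and the retinol esterifying enzyme Lrat had no row in either table. Of the other quiescence markers, Gfap, Ngfr and Cygb were in the PSC4 table only, with Cygb the highest at 6.14, 1.8 and 3.58 CPM.

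**Figure D2:**
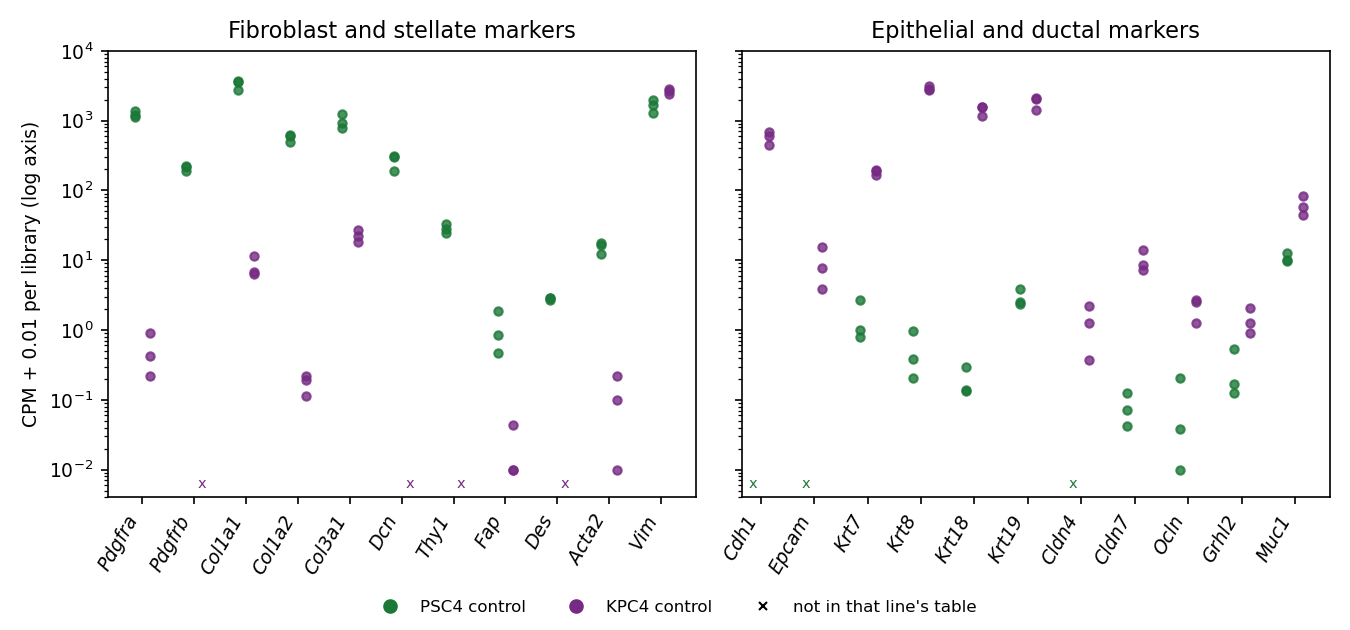
CPM plus 0.01 (log axis) of each fibroblast and stellate marker (left) and each epithelial and ductal marker (right), one point per control library, with a cross where a gene had no row in that line's table. Krt8 lies at 2698 CPM or more in every KPC4 library and under 1 CPM in every PSC4 library, whereas Vim is the only plotted gene on the left with higher points in KPC4.

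Markers of other cell types were summed in each library. Immune markers summed to 3.48 to 5.58 CPM in PSC4 and 0.476 to 1.34 in KPC4, endothelial markers to 1.59 to 2.73 and 0.774 to 1.72, and islet endocrine markers to 6.16 to 8.78 and 0.298 to 0.843. Schwann cell markers summed to 12.2 to 20 CPM in PSC4 and 18.1 to 42.3 in KPC4, and of 3 tested 1 was higher in PSC4 and 1 in KPC4. Acinar markers summed to 7.55 to 16.0 and 5.75 to 8.3, and the 1 tested was not called. Isl1, a transcription factor also known outside the islets, was the only endocrine marker with a row. The pericyte and smooth muscle sum of 109 to 162 CPM in PSC4 came almost wholly from Notch3, a receptor of mural cells (109, 111 and 157 CPM against 0.475, 0.0302 and 0.137 in KPC4). Msln, the mesothelial surface protein that many pancreatic carcinomas carry, was at 214, 159 and 225 CPM in PSC4 and 258, 252 and 256 in KPC4, a difference that did not pass the test (log2 -0.36, adjusted p = 0.0919). In bulk libraries, fewer cells of a type and less RNA per cell cannot be told apart.

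Most collagen chains tested were higher in PSC4, and so were 9 of 15 collagen folding and cross-linking genes. Of 17 collagen chains tested, 12 were higher in PSC4 and 4 in KPC4, with a median log2 difference of 4.57 against 0.00 over all genes. The fibrillar chains of types I, III and V and the chains of type VI were on the PSC4 side. Col3a1 averaged 979 ± 234 CPM against 22.4 ± 4.2, and Col6a3 differed by 7.01 (SE 0.24, adjusted p = 2.32e-08). Col5a2, the partner of Col5a1 in type V collagen, was in the PSC4 table only at 598 ± 125 CPM. The chains higher in KPC4 include collagens of basement membranes and their anchors. Col18a1, the source of endostatin, measured 467, 307 and 465 CPM in KPC4 and 63.5, 47.5 and 72.7 in PSC4. Col7a1, which forms anchoring fibrils under epithelia, measured 45.6, 26.3 and 34.2 CPM in KPC4 against 1.18, 0.899 and 2.58 in PSC4. Col15a1 and Col4a1 were the other two, and their calls depended on single libraries. Col4a1 (log2 -0.64) was not called with factors from the reference genes (log2 -0.31, adjusted p = 0.193) or without KPC4 replicate 3 (adjusted p = 0.0504). Col15a1 was not called with those factors (adjusted p = 0.0677), nor without PSC4 replicate 1, PSC4 replicate 2, KPC4 replicate 1 or KPC4 replicate 3 (adjusted p from 0.0803 to 0.142). With those factors, or without KPC4 replicate 3, the count higher in KPC4 was 2.

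Lysyl oxidases cross-link collagen and elastin. Lox itself led the identifiers found in the PSC4 table only, with 978, 758 and 867 CPM, followed among its relatives by Loxl1 at 333 ± 134. Loxl3 was higher in PSC4 by 4.48 (SE 0.20), whereas Loxl2 stood at 103, 102 and 114 CPM in PSC4 and 161, 110 and 155 in KPC4 and did not pass the test. The 15 collagen folding and cross-linking genes tested had a median log2 difference of 1.02. Beside 23.7% and 24.7% of all genes, 9 were higher in PSC4, of which 5 at least 4-fold, and 2 in KPC4. The collagen chaperone Serpinh1 (896, 598 and 814 CPM against 162, 103 and 143) and the procollagen protease enhancer Pcolce (1033, 676 and 764 against 98.4, 88.3 and 110) were among the former. The lysyl hydroxylase Plod2 was higher in KPC4, at 106, 120 and 119 CPM against 31.7, 40.2 and 35.3. The other was the prolyl hydroxylase chain P4ha1 (log2 -0.41, adjusted p = 0.0283), whose call was lost with factors from the reference genes and without PSC4 replicate 1, PSC4 replicate 3, KPC4 replicate 1 or KPC4 replicate 3.

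Non-collagen matrix genes leaned the same way. Of 15 matrix glycoproteins and proteoglycans tested, 12 were higher in PSC4 and 0 in KPC4, and 8 more members were in the PSC4 table only. Biglycan (Bgn), a small proteoglycan, measured 1935, 2386 and 1934 CPM in PSC4 and 1.69, 1.12 and 1.06 in KPC4 (log2 difference 10.65, SE 0.29, adjusted p = 1.19e-08). Thbs2, a matricellular protein, differed by 11.65 with 377, 487 and 582 CPM in PSC4 and at most 0.272 in KPC4. The 3 members that were not called were Fn1, Spp1 and Ecm1. Fibronectin (Fn1) averaged 1979 ± 396 CPM in PSC4 and 1373 ± 324 in KPC4 and osteopontin (Spp1) 2260 ± 268 and 2909 ± 560, with overlapping values for Fn1. Per kilobase, osteopontin stood above every collagen and keratin tested in its line, at 1372 CPM per kb in PSC4 and 1765 in KPC4.

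Basement membrane genes split by chain. The epithelial laminin chain Lamb3 was higher in KPC4 and measured 81.7, 55.5 and 56.9 CPM against 0.144, 0.186 and 0 (log2 difference -9.13, SE 0.47). Lama3, another epithelial laminin chain, was at or under 0.297 CPM in every library of both lines and was not tested. Lama4 was in the PSC4 table only. The proteoglycan perlecan (Hspg2) was higher in PSC4 by 2.02, agrin (Agrn) in KPC4 (log2 difference -1.02), and Lamb2 and Lamc1 were not called. Over 11 genes tested, 4 were higher in PSC4 and 5 in KPC4, with a median of 0.17, beside 23.7% and 24.7% of all genes. With factors from the reference genes the counts were 6 and 4. In a test against a 2-fold difference they were 3 and 2.

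Integrins, the receptors for this matrix, leaned to KPC4. All 12 tested were called, 9 higher in KPC4 and 3 in PSC4, with a median of -2.46. The collagen-binding alpha chains Itga1 and Itga2 were both on the KPC4 side. Itga1 measured 761, 623 and 549 CPM in KPC4 against 32.2, 45.8 and 35 in PSC4, and Itga2 measured 224, 352 and 246 against 1.06, 1.61 and 0.806. The laminin receptor chains Itga6 and Itgb4 differed by -4.11 and -5.95. Those higher in PSC4 were the fibronectin receptor chain Itga5 (log2 1.19), Itgb5 (0.76) and Itgb1 (0.46), the beta chain shared by most of these receptors. Without PSC4 replicate 2, KPC4 replicate 1 or KPC4 replicate 3 the count higher in PSC4 was 2. In a test against a 2-fold difference it was 0, and the count higher in KPC4 stayed at 9. Nephronectin (Npnt), a basement membrane ligand of integrins, averaged 771 ± 53.8 CPM in KPC4 and 91.7 ± 13.4 in PSC4. The collagen receptor kinase Ddr2 lay on the other side, at 364, 508 and 450 CPM in PSC4 and at most 0.272 in KPC4.

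Of 16 matrix proteases and inhibitors tested, 9 were higher in PSC4 and 4 in KPC4. Mmp2, a gelatinase of stroma, measured 314, 236 and 257 CPM in PSC4 and 0.119, 0 and 0 in KPC4. Adamts5 and Mmp3 differed by 9.06 and 6.46, and the inhibitors Timp1, Timp2 and Timp3 by 2.68, 1.08 and 2.75. The 4 of 16 higher in KPC4 stand beside 24.7% of all genes. They include the plasminogen activator Plat (178, 381 and 257 CPM against 158, 80.6 and 87.6) and the urokinase receptor Plaur (34.1, 48.5 and 46.5 against 8.9, 6.42 and 5.38). The other two, Mmp13 and St14, lost their calls with factors from the reference genes, and without PSC4 replicate 2, PSC4 replicate 3 or KPC4 replicate 3, where the count was 2. Of the contractile genes, 5 of 8 tested were higher in PSC4 and 2 in KPC4, beside 23.7% and 24.7% of all genes. Only 1 of the 5 reached 4-fold, which was Acta2. The count higher in PSC4 was 4 without any 1 library and 6 with factors from the reference genes. The myosin kinase Mylk and the actin cross-linker Actn1 were the members higher in KPC4, with log2 differences of -1.63 and -1.35.

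Junction genes leaned to KPC4, as did 4 of the 5 keratins tested. Of 12 adherens and desmosome genes tested, 10 were higher in KPC4 and 0 in PSC4, with a median of -2.78. Desmoplakin (Dsp), the plaque protein that ties desmosomes to keratin, measured 664, 358 and 426 CPM in KPC4 and 0.23, 1.4 and 0.87 in PSC4. Desmoglein 2 (Dsg2) had 3 counts in all PSC4 libraries together, a ratio of 1370 with a counting interval of 469 to 6648 (95%, exact). Beta-catenin (Ctnnb1), which serves both junctions and Wnt signalling, was abundant in both lines and still higher in KPC4, at 2793, 2793 and 3167 CPM against 621, 565 and 641. Of 11 tight junction and polarity genes tested, 9 were higher in KPC4 and 1 in PSC4. The latter was Cldn1, at 0.775, 1.74 and 0.677 CPM in PSC4 and at most 0.332 in KPC4. Its call was lost without any 1 of the libraries other than KPC4 replicate 2 (adjusted p from 0.0524 to 0.109), and the count higher in PSC4 was then 0. Another 7 genes of that list were in the KPC4 table only, led by Cldn6 at 73.8, 96.2 and 105 CPM and Cldn3 at 36.2, 27.4 and 38.1.

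Transcription factors of endoderm were on the KPC4 side. Of 12 epithelial regulators tested, 11 were higher in KPC4 and 1 in PSC4, with a median of -5.42. Hnf4a, the nuclear receptor of hepatic and gut epithelium, was in the KPC4 table only at 400, 379 and 410 CPM. Pdx1, the master factor of pancreatic endoderm, was there too at 59.3, 48.4 and 60.2. The pioneer factor Foxa2 measured 42.6, 52.2 and 42.9 CPM in KPC4 and 0.0287, 0.031 and 0.226 in PSC4, and Foxa1 differed by -5.68 (SE 0.26). Onecut2, an endodermal homeobox gene, averaged 950 ± 257 CPM in KPC4 and 17.4 ± 6.78 in PSC4. Elf3, an epithelial ETS factor, had 1 count over the PSC4 libraries and 2003 over the KPC4 libraries, a ratio of 2047 with a counting interval of 367 to 80883. Sox9, of ductal and progenitor cells, differed by less, with 78.2, 78.0 and 79.1 CPM in KPC4 and 24.5, 18.3 and 20.2 in PSC4. The member higher in PSC4 was Trp63, the p63 gene (4.77, 5.18 and 6.45 CPM against 0.119, 0 and 0).

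Among 17 mesenchymal transcription factors tested, 13 were higher in PSC4 and 1 in KPC4. The latter was Runx2, a factor of bone and cartilage (log2 -0.42, adjusted p = 0.0462), which was called neither without any 1 library (adjusted p from 0.0532 to 0.130) nor with factors from the reference genes (adjusted p = 0.763). The fibroblast homeobox gene Prrx1 measured 283, 378 and 317 CPM in PSC4 and 17.8, 20.8 and 16.1 in KPC4 (log2 difference 4.16, SE 0.19, adjusted p = 9.95e-08). Foxd1, Osr2 and Foxf1 differed by 6.89, 7.56 and 6.46, and Snai1, a repressor of E-cadherin, by 5.61. Zeb1, another repressor of E-cadherin, did not pass the test. It measured 92.3, 146 and 102 CPM in PSC4 and 108, 90.7 and 88 in KPC4, with overlapping values (log2 0.25, adjusted p = 0.315). Twist2 overlapped as well, while Zeb2 was higher in PSC4 by 2.83. N-cadherin (Cdh2), the cadherin of mesenchyme, stood at 136, 159 and 143 CPM in PSC4 and 146, 145 and 138 in KPC4, with overlapping values. Vim measured 2682, 2435 and 2833 CPM in KPC4 and 1300, 2002 and 1648 in PSC4, so that each KPC4 library was above every PSC4 library. Its difference of -0.68 (adjusted p = 0.0133) was not called with factors from the reference genes (log2 -0.33, adjusted p = 0.242). Nor was Vim called without KPC4 replicate 3 or in a test against a 2-fold difference. The hyaluronan receptor Cd44 was higher in KPC4 too (log2 difference -1.68, SE 0.13). KPC4 thus held Cdh1, keratin, Vim and Cdh2 transcripts in the same libraries.

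Most of the Hox genes tested, which record position along the body axis, were higher in PSC4. Of 31 Hox genes on the list, 19 were in both tables, 9 in the PSC4 table only, 0 in the KPC4 table only and 3 in neither. Of 18 tested, 16 were higher in PSC4, against 23.7% of all genes, with a median of 3.13. Hoxb9 had the largest difference in size, at 75.9, 77.9 and 71.5 CPM in PSC4 and 0.416, 0.211 and 0.24 in KPC4. Hoxa13, the most posterior gene of its cluster, went the other way with 23.4, 16.3 and 22.9 CPM in KPC4 and 1.49, 4.12 and 2.09 in PSC4 (log2 difference -3.02, SE 0.37, adjusted p = 9.77e-05). Hoxa11, next to it in the cluster, differed by 4.31 and Hoxa10 by 1.11, both higher in PSC4. The counts of 16 and 1 were the same under each scaling and without each library in turn.

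**Figure D3:**
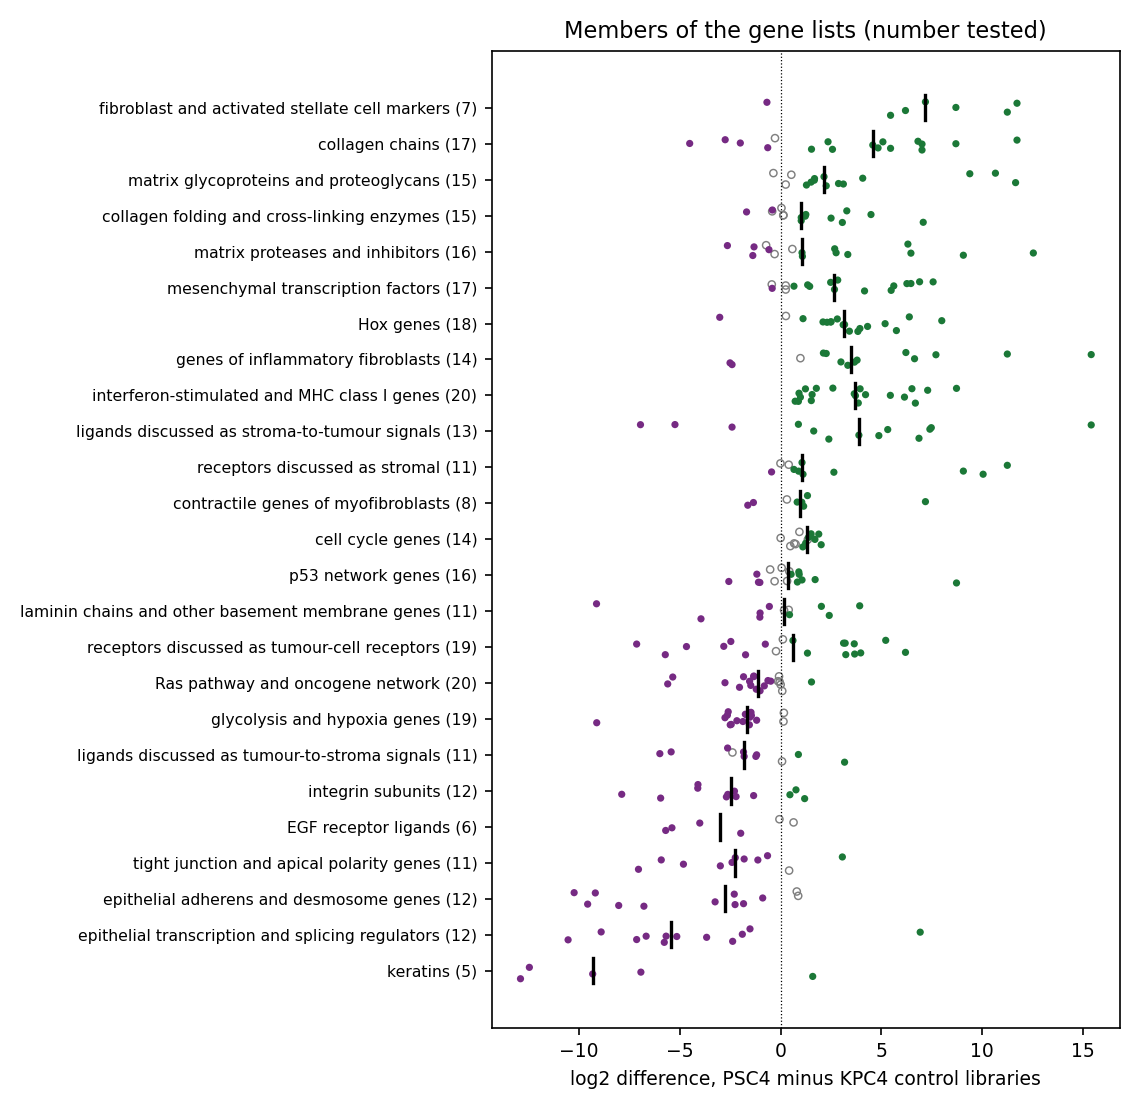
Log2 difference of each tested member of 25 gene lists, positive where PSC4 was higher; filled points passed the test (green higher in PSC4, purple higher in KPC4), open points did not, and the black bar is the list's median. The lists plotted were picked after their values were seen; all 20 interferon and MHC class I genes lie to the right of 0 and 17 of 19 glycolysis and hypoxia genes are filled to the left of it.

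Secreted signals and their receptors were unequal in both directions. Of 13 ligands discussed as signals from stroma to tumour, 10 were higher in PSC4 and 3 in KPC4. Cxcl12, a chemokine of fibroblasts, measured 1319, 840 and 1052 CPM in PSC4 and 0.0297, 0.0302 and 0 in KPC4. With 105696 counts against 2, the ratio was 51718 with a counting interval of 14317 to 427057. Its receptor Cxcr4 had no row in either table. Gremlin 1 (Grem1), a secreted BMP antagonist, was the highest PSC4 transcript of these ligands per kilobase at 532 CPM per kb and measured 2422, 2168 and 2027 CPM against 62.3, 56.2 and 47.8. Hepatocyte growth factor (Hgf) stood at 52.5, 71.6 and 65.2 CPM in PSC4 and 0.743, 0.242 and 0.103 in KPC4. Its receptor Met was transcribed in both lines and was higher in KPC4 (213, 171 and 176 against 95.8, 117 and 119). Fgf7 and Fgf10, ligands of the epithelial isoform of Fgfr2, differed by 6.86 and 7.47, whereas Fgfr2 itself was higher in PSC4 (15.6, 16 and 10.6 CPM against 1.31, 1.09 and 0.274). Isoforms of Fgfr2 were not resolved.

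The 3 ligands of that list that were higher in KPC4 were Fgf1, Wnt5a and Lif. Fgf1 measured 62, 53.4 and 57 CPM in KPC4 and 0.431, 0.124 and 0.838 in PSC4, while Fgfr1 was at 274, 219 and 259 CPM in PSC4 and 3.92, 2.93 and 3.42 in KPC4. Lif, a cytokine of the interleukin 6 family, measured 21.5, 34.9 and 29.9 CPM in KPC4 against 6.83, 3.69 and 5.7 in PSC4. Both chains of its receptor were higher in PSC4. Lifr differed by 3.67 (SE 0.17), and Il6st, which encodes gp130, measured 859, 1338 and 1252 CPM against 159, 113 and 126. Il6 was at or under 0.29 CPM in every PSC4 library and at 0 in KPC4. For each of Fgf1 and Lif, the ligand was thus higher in one line and the receptor named here in the other.

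Ligands of the EGF receptor family leaned to KPC4. Of 6 tested, 4 were higher in KPC4 and 0 in PSC4. Tgfa measured 107, 114 and 109 CPM in KPC4 and 5.8, 6.98 and 7.67 in PSC4, Areg and Btc differed by -5.70 and -5.39, and Hbegf by -1.98. The receptor Egfr was higher in PSC4, at 168, 265 and 229 CPM against 24.9, 21.7 and 24.1 (log2 difference 3.23, SE 0.19, adjusted p = 6.42e-07). Erbb2 was not called. Erbb3 was higher in KPC4 (52.6, 37.4 and 53.5 CPM against 7.09, 10.4 and 8.38), and its ligand Nrg1 was higher in PSC4 (99.6, 133 and 138 against 2.79, 7.58 and 2.26). Of the ligands discussed as tumour-to-stroma signals, Dhh and Ihh, hedgehog ligands, differed by -5.43 and -5.99 and Shh was in the KPC4 table only at or under 0.349 CPM. The hedgehog receptor and target Ptch1 was not called. Pdgfb, Pdgfc and Tgfb1 were higher in KPC4, with log2 differences of -1.81, -1.84 and -1.23, while Tgfb2 and Tgfb3 were higher in PSC4 by 3.17 and 0.88.

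**Figure D4:**
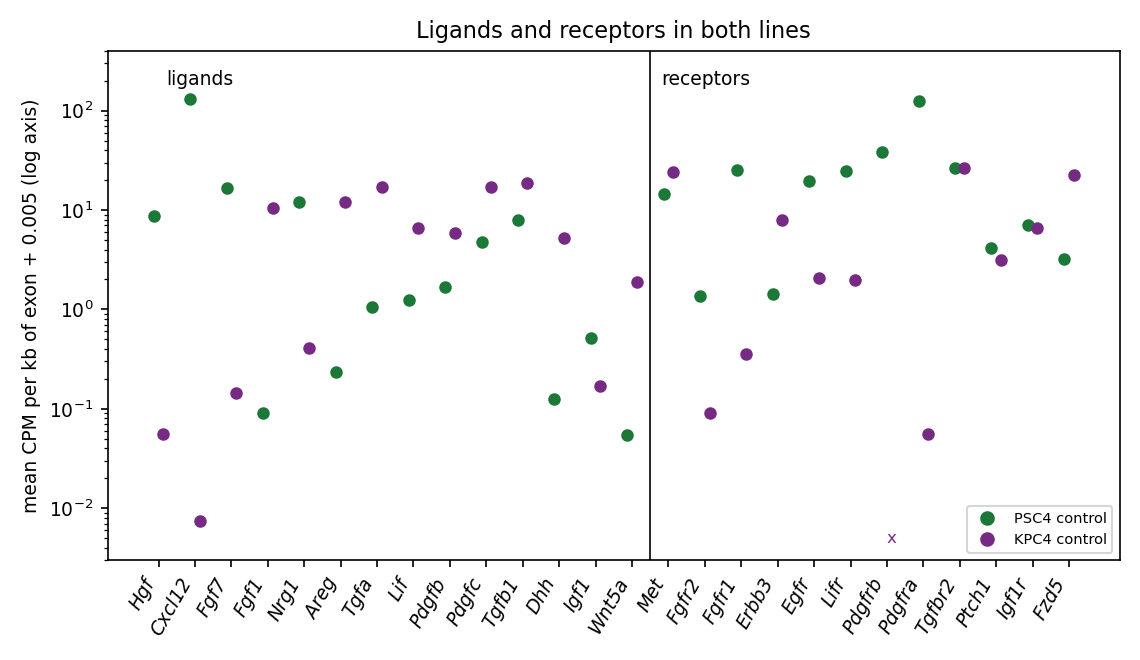
Mean CPM per kilobase of exon plus 0.005 (log axis) of 14 ligands (left) and their receptors (right) in control PSC4 and KPC4, with a cross where a gene had no row in that line's table. The pairs plotted were chosen after their values were seen; Cxcl12 and Hgf are higher in PSC4, and Fgf1, Areg and Tgfa are higher in KPC4 while Fgfr1 and Egfr are higher in PSC4.

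Genes of inflammatory fibroblasts were higher in PSC4 for 11 of 14 tested and in KPC4 for 2, with a median of 3.50. Complement C3 measured 547, 524 and 393 CPM in PSC4 and 7.96, 1.3 and 5.44 in KPC4. The chemokines Ccl7, Ccl2, Cxcl1 and Cxcl5 differed by 6.21, 2.99, 3.66 and 3.33. The prostaglandin synthase Ptgs2 and Lif were the members higher in KPC4, with KPC4 replicate 2 highest for Ptgs2 (49.1, 181 and 75.5 CPM). Genes of MHC class II were low. H2-Aa and H2-Ab1 had no row in either table, and Cd74 was in the PSC4 table only at 2.3 to 3.87 CPM. Outside the lists, Il1rl1, the receptor of interleukin 33, and Enpp2, the enzyme that makes lysophosphatidic acid, were among the most abundant genes with a large difference, at 938 ± 92.6 and 1089 ± 178 CPM in PSC4 and 6.05 ± 2.85 and 9.45 ± 2.74 in KPC4.

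Interferon-stimulated and MHC class I genes, 3 of whose promoters are printed above, were higher in PSC4. All 20 were tested and called, with 12 at least 4-fold and a median of 3.68, against 23.7% of all genes called in that direction. Without each library in turn 19 or 20 were called. Isg15, a ubiquitin-like modifier, measured 457, 297 and 350 CPM in PSC4 and 23.4, 29.3 and 31.9 in KPC4. Ifit3 measured 705, 809 and 683 against 33.2, 36.3 and 49.6, and Rsad2, the antiviral enzyme viperin, 141, 131 and 160 against 0.981, 3.62 and 1.47. The groups did not overlap for any of these 3 genes. The immunoproteasome subunit Psmb8 (57, 40.6 and 51.6 CPM against 0.238, 0.0906 and 0) and the peptide transporter Tap1 (153, 106 and 162 against 1.87, 3.68 and 4.18) belong to the antigen pathway, as does Nlrc5, an activator of MHC class I genes, which differed by 6.68. The class I chains themselves differed least: H2-D1 measured 709, 309 and 506 CPM in PSC4 and 278, 326 and 321 in KPC4, overlapping at PSC4 replicate 2 (log2 0.72, adjusted p = 0.0457). Mitochondrial reads were also highest in PSC4 replicate 2, and their part in its values was not tested.

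Glycolytic genes leaned to KPC4. Of 19 glycolysis and hypoxia genes tested, 17 were higher in KPC4 and 0 in PSC4, with a median of -1.67, against 24.7% of all genes. Lactate dehydrogenase A (Ldha) measured 1926, 2155 and 2088 CPM in KPC4 and 340, 294 and 359 in PSC4 (log2 difference -2.64, SE 0.16, adjusted p = 6.79e-07). The lactate exporter Slc16a3 had the widest gap of the list, at 347, 226 and 333 CPM in KPC4 and 0.574, 0.682 and 0.354 in PSC4. The glucose transporter Slc2a1 (245, 278 and 258 against 40.9, 36.9 and 37.7), Hk2 and Aldoa differed by -2.76, -2.50 and -2.45. Gapdh, often used as a reference gene, averaged 4908 ± 561 CPM in KPC4 and 1343 ± 134 in PSC4. The lactate importer Slc16a1 and Car9, a hypoxia marker, were not called, and Car9 was at or under 1.16 CPM in all 6 libraries. The count of 17 was the same under every scaling and without each library, and with factors from the reference genes Slc16a1 was called as well, higher in PSC4.

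**Figure D5:**
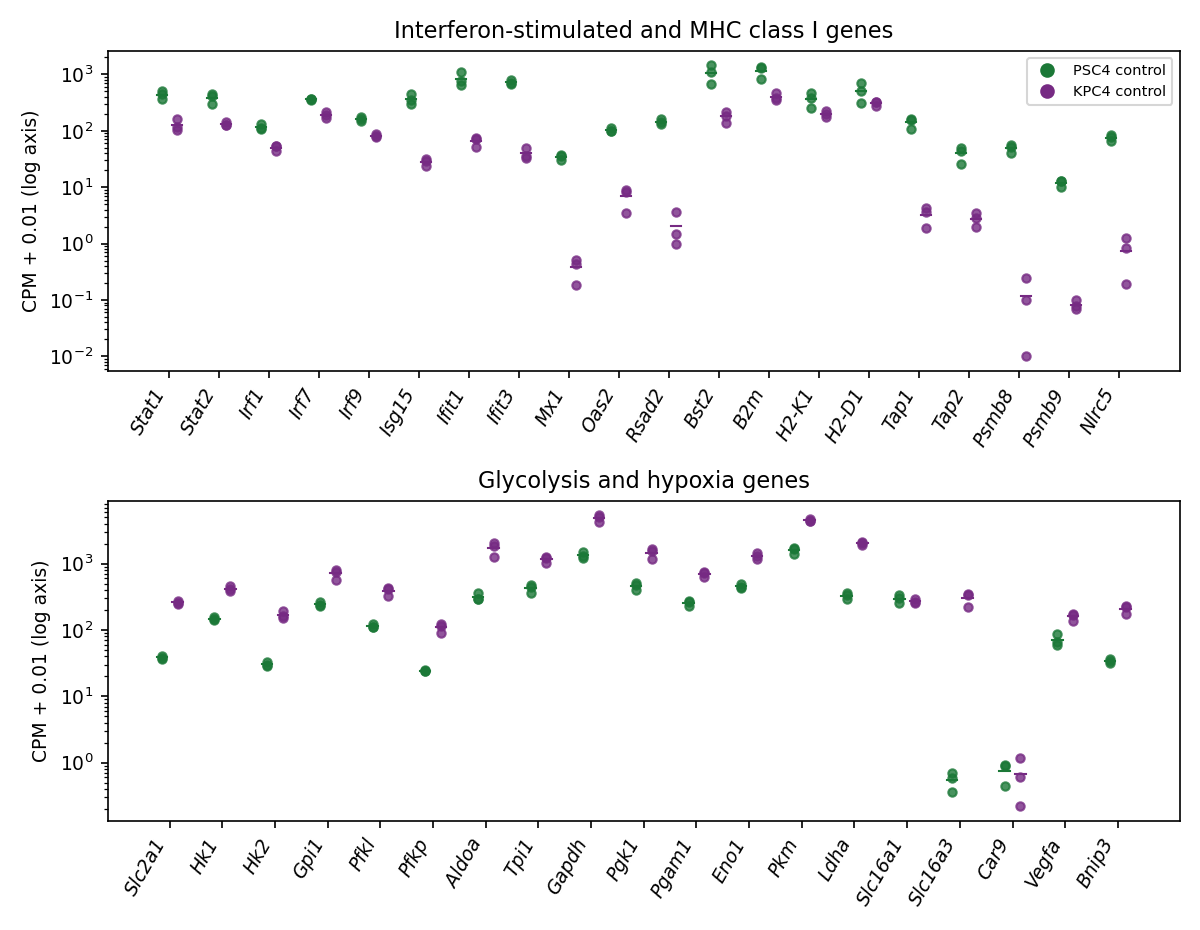
CPM plus 0.01 (log axis) of each interferon-stimulated or MHC class I gene (top) and each glycolysis or hypoxia gene (bottom), one point per control library, with a bar at each mean. PSC4 points lie above KPC4 points for all but H2-D1 at the top, and at the bottom KPC4 points lie above PSC4 points except for Slc16a1 and Car9.

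Cell cycle genes were uneven between the replicates of KPC4. Of 14 tested, 8 were higher in PSC4 and 0 in KPC4. Mki67, the proliferation antigen, measured 412, 1007 and 728 CPM in PSC4 and 197, 521 and 193 in KPC4. Top2a, the replication topoisomerase, measured 739, 1042 and 956 against 179, 573 and 226. KPC4 replicate 2 was the highest KPC4 library for both, and its Mki67 level lay within the PSC4 range. Without that library 14 of 14 were called higher in PSC4, without KPC4 replicate 3 only 3 were, so that the count turns on single libraries.

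Of 20 genes of the Ras pathway and oncogene network, 14 were higher in KPC4 and 1 in PSC4, beside 24.7% and 23.7% of all genes. Only 4 of the 14 reached 4-fold. The count higher in KPC4 was 11 with factors from the reference genes and 8 in a test against a 2-fold difference. Dusp6, the ERK phosphatase that ERK signalling itself induces, measured 178, 329 and 258 CPM in KPC4 and 6.49, 4.4 and 7.9 in PSC4 (log2 difference -5.35, SE 0.31, adjusted p = 6.02e-07). Spry4, another target of that pathway, differed by -2.76, the cyclins Ccnd1 and Ccnd2 by -2.04 and -1.84, and Myc by -1.33. Hras, Braf, Cdk4 and Rb1 were among those not called. Of 16 p53 network genes, 7 were higher in PSC4 and 4 in KPC4, beside 23.7% and 24.7% of all genes. Their median was 0.38, and only 1 gene in each direction reached 4-fold. In a test against a 2-fold difference the counts were 2 and 1. Trp53 itself was not called (129, 83.8 and 91.1 CPM against 121, 169 and 146, adjusted p = 0.0513), and Eda2r, a death-domain receptor, had the widest gap at 18.2, 20.5 and 19 CPM in PSC4 and at most 0.0684 in KPC4.

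The list of mucins and of ductal, gastric or intestinal secretory genes held 18 members, of which 8 had a row in neither table and 5 in the KPC4 table only. The 5 that were tested were called higher in KPC4, against 24.7% of all genes, with a median of -10.28. The median was -6.89 when genes at or under 3 counts in every PSC4 library were set to their bound. Outside that list, Clu, Cdh17, Tm4sf4, Anxa13 and Tspan8 are given here for their level or the size of their difference. Clusterin (Clu), a secreted chaperone, had one of the highest levels among genes with a large difference, at 2641, 2358 and 3806 CPM against 8.7, 11.5 and 7.32. The intestinal cadherin Cdh17 (1026, 1185 and 993 CPM against 3.56, 4.78 and 3.54) was high in KPC4. The galectin Lgals4, the tetraspanin relative Tm4sf4 and the annexin Anxa13, all known from gut epithelium, averaged 620, 1050 and 631 CPM in KPC4 and 0.489, 0.0992 and 0.0980 in PSC4. Tspan8, a tetraspanin, was at 0 counts in all PSC4 libraries and at 362, 379 and 430 CPM in KPC4. Set against a floor of 3 counts in each library it was at least 4248-fold higher in KPC4. The chloride and bicarbonate transporters of duct cells, Slc12a2 (1553, 1328 and 1403 CPM against 43.6, 48.9 and 46.9), Slc4a4 and Cftr, were higher in KPC4 as well. The mucins Muc5ac, Muc6 and Muc4 had no row in either table.

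Identifiers found in a single table were mostly low. Of the 2026 in the PSC4 table only, 291 averaged at least 1 CPM and 16 at least 100; of the 949 in the KPC4 table only, 246 and 12 did. Beyond those described, the highest in PSC4 were Ogn, a small proteoglycan, at 319, 330 and 279 CPM, Pde1a at 262 ± 71.9, and Mgp, an inhibitor of calcification, at 222 ± 132 with replicate 1 highest. In KPC4 they were Fermt1, an integrin activator of epithelia, at 281, 243 and 253 CPM, Lad1, a basement membrane anchor, at 238 ± 39.7, Myo7b, a brush border myosin, at 154 ± 60.2, and Pklr, the liver pyruvate kinase, at 151 ± 35.3. The smallest row total was 0 for PSC4 and 11 for KPC4. A missing row is therefore no measured 0, and no fold is given.

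The same lines were compared in the 6 libraries of the gemcitabine arm, which share no library with the control arm. There 5656 of 13148 genes were called (43.0%), 2662 higher in PSC4 (20.2%) and 2994 in KPC4 (22.8%), and 16.1% were called with at least 4-fold (7.48% higher in PSC4 and 8.58% in KPC4). Of the 6267 control calls tested in both arms, 3895 (62.2%) were called there with the same sign and 85 with the opposite sign. Of the 2055 control calls of at least 4-fold, 1824 (88.8%) were. Krt8 and Krt18 differed by -12.12 and -12.82 there, Col1a1 by 8.09 and Cxcl12 by 9.89. Among the lists, 16 of the 17 called glycolysis and hypoxia genes and 15 of the 17 called Hox genes were called again with the same sign. For the interferon and MHC class I genes it was 12 of 20, and their median was 3.68 in the control arm and 2.01 in the gemcitabine arm. The change of the line difference between the arms passed the test for 1343 of 13632 genes (9.85%), and for 4 of these 20. For the p53 network genes 5 of the 11 called were called with the same sign in the gemcitabine arm, their median was 0.38 in the control arm and 2.46 there, and the change passed the test for 10 of 16. For the genes of inflammatory fibroblasts it was 7 of 13, with a change past the test for 5 of 14, and for the mesenchymal transcription factors 11 of 14, with a change past the test for 8 of 17. For the cell cycle genes it was 3 of 8. At the other end, genes with a mean over 200 CPM in both lines and the smallest differences included Rpl3, a ribosomal protein (1374 CPM in both lines), and Vps35, a retromer subunit (350 in both).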

How the data were processed

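RNA was sequenced from 12 libraries, of which 6 form the control comparison. The authors deposited 1 table of estimated counts for each line, as whole numbers per Ensembl identifier. The submitters' processing notes name FastQC, Trim Galore 0.6.10, cutadapt 5.2, Salmon, R 4.5.1, DESeq2 and GRCm39, without roles or order. The rule by which rows entered each table is not given in the sources used here. Both tables were joined on identifiers and scaled together. Symbols and exon lengths came from GENCODE M21, and 99.6% of identifiers had a symbol.

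Genes were kept by filterByExpr, scaled by TMM and tested with edgeR 4.0.16 (robust quasi-likelihood test, Benjamini-Hochberg adjustment at 0.05) in R 4.3.3, and every adjusted p in the text comes from edgeR. The gemcitabine libraries were fitted alone, and the line by arm interaction over all 12 libraries. Alternatives used DESeq2 1.42.0, limma 3.58.1, other factors, other filters, a block and omission of each library. The fit was also run on simulated counts in which both lines shared a mean profile apart from a small set of changed genes. With 48.4% of genes called here, that setting is unlike these data and cannot test the scaling between the lines.

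Samples were grouped by title, and the labels call them biological replicates. If they do not come from separate cultures, the p-values measure only the spread between these samples. Totals are given with the results; counting intervals cover counting error only. The members and the 42 gene lists were chosen with earlier results of these data known. Named genes are the 12 of highest level in each direction with a log2 difference of at least 3, the 5 of largest difference, the 8 highest identifiers of a single table, the 5 nearest to equal, and members of the lists. Floors are 3 counts. The authors' tables of drug effects were not used here, and some genes are not reported here.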

Additional observations from a re-analysis of the deposited data

Results flagged for a closer look

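The line difference itself differed between the control and the gemcitabine arm for 9 of the 33 genes named by level, by size of difference or by near equality, which were the genes looked at for this. The test was edgeR's interaction over all 12 libraries, where 9.85% of 13632 genes passed. With replicate numbers blocked 10 passed: Cxcl12 (adjusted p = 0.00939, against 0.0568 unblocked) and Gas1 (0.0472, against 0.209) were added, and Col1a2 was lost. Most of the 33 were named for a large difference in the control arm, a choice that favours smaller differences in the other arm, so that no shared direction is read from these changes. Pdgfra differed between the lines by 11.24 on the log2 scale in the control arm and by 7.39 in the gemcitabine arm, 3.83 less (adjusted p = 0.00255). Enpp2 differed by 6.85 and 3.45, a change of 3.39 (adjusted p = 0.000526). For Grem1 the change was 1.80 (5.31 against 3.51, adjusted p = 0.00315), for Bgn 1.78 (adjusted p = 0.018) and for Il6st 1.68 (adjusted p = 0.00327). Among collagen chains, Col3a1 changed by 2.38 (adjusted p = 0.0248) and Col1a2 by 2.57 (adjusted p = 0.0467, or 0.0577 when replicate numbers were blocked). Of the genes higher in KPC4, the change was -1.47 for Krt19 (-9.32 against -7.86, adjusted p = 0.0127) and -1.78 for Slc12a2 (-4.94 against -3.16, adjusted p = 0.00657).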

How the results depend on the processing

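Without a library in turn, 5195 to 6333 genes were called in the control arm and 4008 to 6092 in the gemcitabine arm. A test against a 2-fold difference called 2608 control genes (1312 higher in PSC4, 1296 in KPC4) and 2432 gemcitabine genes (1119 and 1313). Factors from the reference genes gave 4816 calls higher in PSC4 and 2036 in KPC4. With at least 10 counts in every library, 1157 control and 1179 gemcitabine genes were called at 4-fold or more; that filter removes genes at or near 0 in either line. Other factors, filters and tools gave 5472 to 6700 control calls. Rrm2 was not called (log2 -0.08); it lay at -0.46 without KPC4 replicate 1 and was called higher in PSC4 without KPC4 replicate 2 (0.99, adjusted p = 0.00916, edgeR), and the cause was not tested. With replicate numbers as a replicate block, 6023 control and 5031 gemcitabine genes were called. Same-numbered libraries deviated together with correlations of -0.034, 0.132 and -0.026, and PSC4 replicate 1 correlated best with KPC4 replicate 3 (0.177), so that the numbers were not taken to pair libraries. The block ended the calls for H2-D1 (adjusted p = 0.0805) and Itgb1 (adjusted p = 0.0628) among 16 listed genes that lost theirs. Genes under about 3 counts a library carry little information at this depth.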

Other observations

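Of 12 tested genes of gemcitabine uptake and metabolism, 2 were higher in PSC4, 3 in KPC4 and 7 were not called, with log2 differences from -1.18 to 1.26, where 48.4% of all genes were called. Without KPC4 replicate 2, 4 were higher in PSC4. The deaminase Cda, which inactivates the drug, measured 20, 11.6 and 15.2 CPM in PSC4 and 6.51, 6.73 and 9 in KPC4. The transporter Slc29a1 and the activating kinase Dck did not pass the test (adjusted p = 0.0618 and 0.0506, edgeR). The Y-linked gene Ddx3y was at 103, 91.3 and 87.8 CPM in KPC4 and at most 0.29 in PSC4, and Uty, Kdm5d and Eif2s3y were higher in KPC4 too. Xist had no row in either table. Of 5 imprinted genes tested, 4 were higher in PSC4, among them Plagl1, a zinc finger factor, at 18.1, 18.7 and 17.1 CPM against at most 0.121. Dlk1, a Notch ligand relative, was in the PSC4 table only at 110, 82.3 and 73.5 CPM.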
